A study of Capsicum annuum with 2 samples.

Results

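Abundant transcripts with a higher level in anthers of the cytoplasmic male sterile (CMS) line 121A than in anthers of the restorer line 121C are described here. A transcript was included if it had at least 1000 reads in 121A and an RPKM in 121A at least 4 times that in 121C. RPKM is a read number corrected for transcript length and for the depth of sequencing. The transcripts are unigenes, that is sequences assembled from the reads without a genome, and 80 of the 11387 unigenes in the deposited table met the rule. The unidentified unigenes comp48143_c0_seq1 and comp48144_c0_seq1 also met it but were left out, since comp48143_c0_seq1 alone took 32.3% of the 121A library. The reads and RPKM values of both lines chose the 80 unigenes, so their ratios are a description and no test was run on them.

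Line 121A is male sterile. Line 121C carries a dominant restorer gene and is near-isogenic to 121A, and both lines have a cytoplasm derived from the same sterile source, with at least 7 backcrosses. The anthers came from 20 plants of each line, and the RNA of 5 bud phases was combined into 1 library per line. A difference between the lines thus has no replicate check in the sequencing. The RPKM values rest on 10744829 reads in 121A and 9552875 reads in 121C. All shares of a library given here refer to these totals, which are lower than the numbers of read pairs that the paper reports. Intervals are given at 95%, were computed by the exact Clopper-Pearson method and cover counting error only. Those of ratios use the reads of both libraries, and those of library shares use the reads and total of 1 library. In anthers as a whole, fewer cells of a type and less RNA per cell cannot be told apart. The label anther was not checked against marker genes. The table holds no gene names, and of the 1999 annotated unigenes available here only 2 were named as anther, pollen or tapetum proteins, of which 0 are listed.

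In CMS plants, a rearranged mitochondrial gene disturbs the development of pollen, and a nuclear restorer gene counteracts its effect. Pollen is formed in the anther from microspores that are fed by the tapetum, a secretory cell layer of the anther wall. Sterile and fertile anthers can differ both in gene activity and in the cells that they contain.

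The table lists only unigenes that the authors called different between the lines, with limits of 0.001 for the FDR and 1 for the size of the log2 ratio. Of all listed unigenes, 19.5% had an RPKM at least 4 times higher in 121A than in 121C. Among the 385 listed unigenes with at least 1000 reads in 121A this share was 21.3%. Both shares include the 2 unigenes that were left out. The rule used this contrast, so the 80 unigenes are not set against these shares. None of the 80 was among the 1999 annotated unigenes, but these are only a part of the unigenes that the paper annotated. None matched a gene of the pepper reference table by name, which was fixed in advance because names given by the assembly do not occur there. The 80 may therefore have annotations that were not available here. The paper's text describes 2 of them, and it gives a function for only 1.

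That unigene is comp51043_c0_seq1 (1724 bp), which the study annotated as a hypersensitive response assisting protein. Proteins of this name are known from sweet pepper, where they enhance the rapid local cell death that a bacterial elicitor, harpin, provokes. Its RT-PCR primers are shown because they define the part of the transcript that the study amplified. The capitals mark the last 5 bases at the 3′ end, from which the polymerase extends.
comp51043_c0_seq1 forward: taacttcatcccatgcCCTCA
comp51043_c0_seq1 reverse: ttccttgtccatctgcTCTCC

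There were 1505 reads of comp51043_c0_seq1 in 121A and 2 reads in 121C. These numbers correspond to 81.2 RPKM in 121A and 0.12 RPKM in 121C. The level in 121A was below the median of the 80 unigenes there, 142 RPKM, and the transcript was nearly absent from the reads of 121C. The ratio was 669-fold, but with only 2 reads in 121C its interval reached from 185-fold to 5529-fold.

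The other unigene selected by the study is comp60087_c0_seq1 (2051 bp), which had no match in the databases. The paper selected it for relative RT-PCR. The paper's statement on the tested unigenes covers it too, again without an RT-PCR value in the text. Its primers are shown for the same purpose, with the same use of capitals.
comp60087_c0_seq1 forward: tttgttcattccaggGTTTC
comp60087_c0_seq1 reverse: agacattcctccgctTTCAG

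Its level was 142 RPKM in 121A and 12.4 RPKM in 121C. This is 11.5-fold higher in 121A (interval 10.1 to 13.1). The level in 121A was close to the median of the 80 unigenes, and the level in 121C was below their median in that line.

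**Figure D1:**
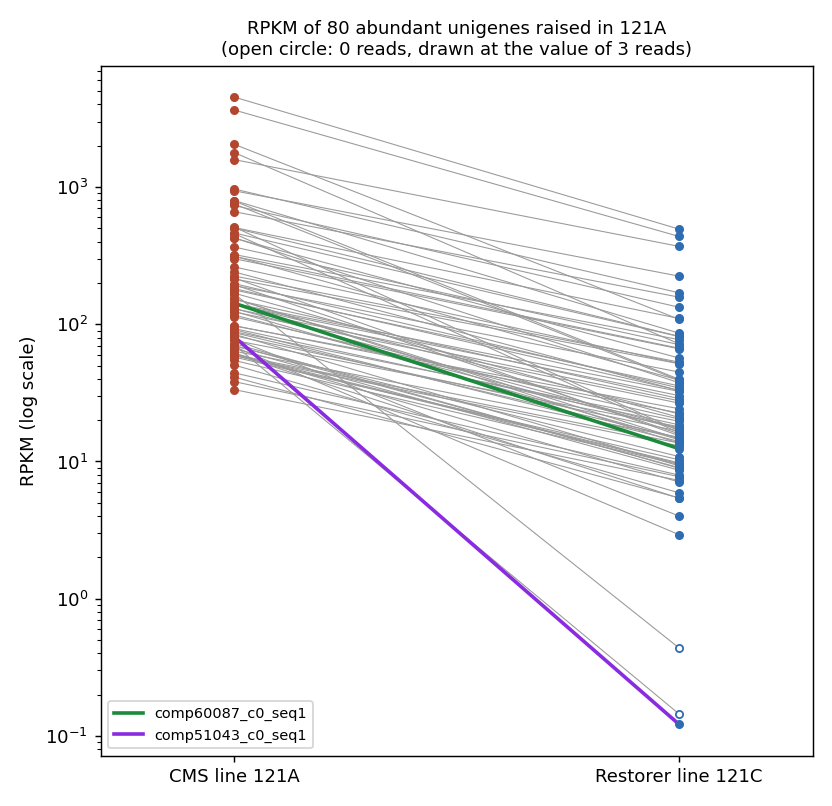
RPKM (log scale) of the 80 unigenes in the CMS line 121A (left) and the restorer line 121C (right), with 1 line per unigene. Levels reached from 33.4 to 4527 RPKM in 121A, and in 121C only 3 unigenes, of which 2 had 0 reads, lay apart from the others at the bottom.

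Together the 80 unigenes held 600243 reads in 121A and 72501 reads in 121C. This is 5.59% of the 121A library (interval 5.57% to 5.60%) and 0.759% of the 121C library (interval 0.753% to 0.764%). Few unigenes made up most of these reads. The unigene comp52029_c0_seq1 alone held 22.1% of the reads of the group in 121A, the 5 unigenes with most reads held 48.2%, and the 20 with most reads held 79.7%. At the other end, 41 unigenes had fewer than 2000 reads in 121A and together held 9.71%.

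Scaled to length, 5 unigenes exceeded 1000 RPKM in 121A. The most abundant was comp56056_c0_seq1 (1121 bp), with 4527 RPKM in 121A and 494 RPKM in 121C. It was the only one of the 80 unigenes among the 100 highest of the listed unigenes in 121C. The next was comp52029_c0_seq1 (3386 bp), with 3644 RPKM in 121A and 436 RPKM in 121C. Their ratios, 9.17-fold (interval 8.92 to 9.44) and 8.35-fold (interval 8.21 to 8.50), were similar in size, although the intervals did not overlap.

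The shorter unigene comp26916_c1_seq1 (576 bp) had 2050 RPKM in 121A and 109 RPKM in 121C. A level of 1784 RPKM in 121A and 72.0 RPKM in 121C was found for comp60228_c0_seq1 (1717 bp). The fifth, comp52531_c0_seq1 (533 bp), had 1585 RPKM in 121A and 369 RPKM in 121C. Similar levels in 121A thus went with different levels in 121C, and the ratio of comp60228_c0_seq1, 24.8-fold, was several times that of comp52531_c0_seq1, 4.29-fold.

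The other unigenes among the 10 highest in 121A lay between 753 and 967 RPKM there. Of these, comp27420_c0_seq1 had 967 RPKM in 121A and 169 RPKM in 121C, and comp59653_c0_seq1 had 939 RPKM in 121A and 224 RPKM in 121C. Both belong to the 5 unigenes of the group with the highest levels in 121C. For comp26917_c0_seq1 the levels were 798 RPKM in 121A and 86.2 RPKM in 121C. The 2 remaining ones, comp62046_c0_seq1 and comp56290_c0_seq1, had 791 and 753 RPKM in 121A, against 39.7 and 39.0 RPKM in 121C, and nearly the same ratio, 19.9-fold and 19.3-fold.

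Most of the 80 unigenes were well represented in 121C as well. In 121C, 16 had at least 1000 reads and 60 had from 100 to under 1000 reads. Their level there was above 6.32 RPKM, the median of all listed unigenes, for 72 of them. The group therefore consists largely of transcripts present in both lines at different levels. This is in part set by the rule, since at least 1000 reads in 121A leave many reads in 121C unless the ratio is large. The 253 listed unigenes with as many reads in 121A, but less than 4-fold higher there, all had at least 254 reads in 121C. Their own limits force many reads in 121C, so they cannot show whether this trait is particular to the group. Only comp65640_c0_seq1, with 1342 reads in 121A and 61 in 121C, had fewer than 100 but more than 2 reads in 121C, and 3 unigenes had fewer than 3.

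The median log2 ratio of the 80 unigenes was 2.62, or 6.15-fold, with quartiles of 2.22 and 3.19. All 4326 listed unigenes higher in 121A had a median of 2.02, but the rule excludes ratios under 2 and the values cannot be compared further. The ratio was under 8-fold for 52 unigenes, from 8-fold to under 16-fold for 17, and at least 16-fold for 11. The median level of the 52 unigenes under 8-fold was 130 RPKM in 121A and 25.4 RPKM in 121C, and that of the next 17 was 155 RPKM in 121A and 14.6 RPKM in 121C. Of the 11 unigenes with the largest ratios, the levels differed. For 8 of them, from 16-fold to under 64-fold, the median was 632 RPKM in 121A and 27.8 RPKM in 121C, whereas the other 3 had a median of 81.2 RPKM in 121A and at most 2 reads in 121C.

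**Figure D2:**
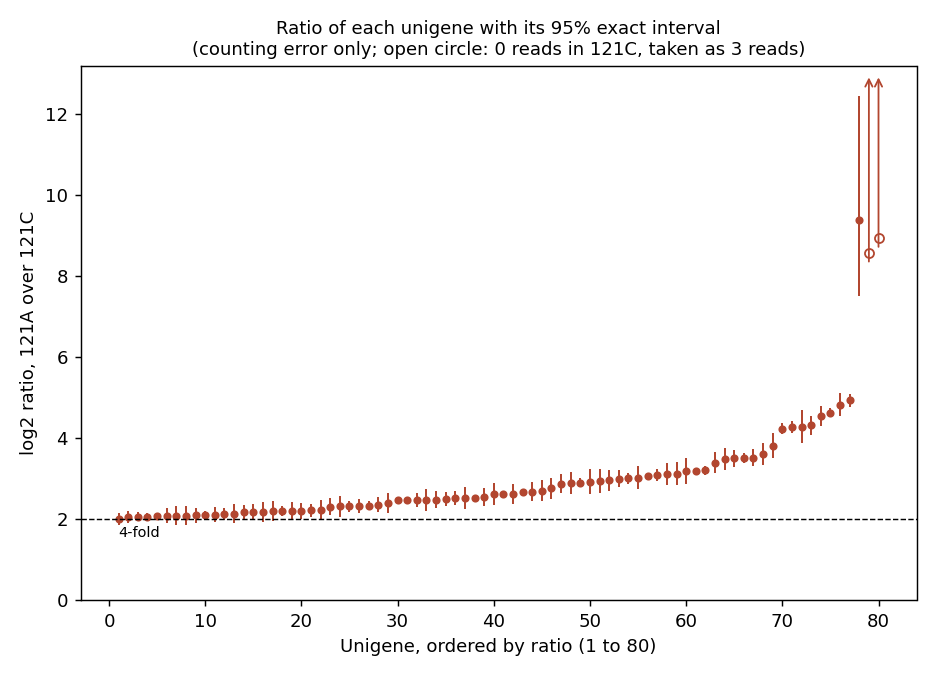
Log2 ratio of 121A over 121C for each of the 80 unigenes, ordered by ratio, with exact 95% intervals (vertical bars) that cover counting error only. The 77 unigenes with more than 2 reads in 121C lie between 4.01-fold and 30.6-fold (log2 ratio 4.94), and the lower interval limits of the other 3 are 7.53 or higher on the log2 scale.

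Beyond comp51043_c0_seq1, the largest ratios belonged to 2 unigenes without reads in 121C. There were 1654 reads of comp54881_c1_seq1 (2175 bp, 70.8 RPKM) and 1286 reads of comp63387_c0_seq1 (718 bp, 167 RPKM) in 121A, against 0 reads of either in 121C. As a floor, the count of 0 was set to 3 reads in the library, or 0.14 RPKM for comp54881_c1_seq1 and 0.44 RPKM for comp63387_c0_seq1. Taken against 3 reads in 121C, the ratios are 490-fold for comp54881_c1_seq1 and 381-fold for comp63387_c0_seq1. The lower limits of the exact intervals, which are two-sided and do not use this floor, are 398-fold and 309-fold, in the same order. Because of the few reads in 121C, the order of these 2 and comp51043_c0_seq1 is not defined.

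A wide gap separated these 3 unigenes from the next. The largest ratio among the others was 30.6-fold (interval 27.9 to 33.6) for comp60228_c1_seq1, which had 16006 reads in 121A and 465 in 121C. It was followed by comp26916_c0_seq1 with 28.2-fold (interval 23.7 to 33.9), so that these neighbours were not separated by counting error. For comp59943_c0_seq1, one of the long unigenes with 6365 bp, the ratio was 23.5-fold at 68.6 RPKM in 121A and 2.93 RPKM in 121C. The ratio of comp65640_c0_seq1 was 19.6-fold, with a wider interval of 15.1 to 25.7.

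At the lower end, the counting interval reached below 4-fold for 11 of the 80 unigenes. Closest to the limit was comp56123_c0_seq1, with 3515 reads in 121A and 779 in 121C and a ratio of 4.01-fold. It was followed by comp62683_c0_seq1 with 4.15-fold and comp38636_c0_seq1 with 4.17-fold. Just outside were comp54028_c1_seq1 with 3.99-fold, comp63050_c0_seq1 with 3.98-fold and comp27014_c0_seq1 with 3.95-fold. By the number of reads in 121A, comp66189_c0_seq1 with 1009, comp43596_c1_seq1 with 1017 and comp61089_c0_seq1 with 1020 were just inside. Unigenes with 997 reads (comp38412_c0_seq1), 974 reads (comp54778_c0_seq1) and 970 reads (comp49254_c0_seq1) were just outside, of which comp38412_c0_seq1 had a ratio of 16.1-fold. The limits thus do not mark a break in the data.

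The lengths implied by reads and RPKM reached from 265 to 19892 bp. Their median was 1660.5 bp, and the median of all listed unigenes was 865 bp. A minimum number of reads favours long unigenes, and the 253 other listed unigenes with at least 1000 reads in 121A that were higher in 121A, but less than 4-fold, had nearly the same median of 1661 bp. The 479 unigenes that were abundant in 121C by the mirrored rule had a median of 1590 bp. More than 2000 bp were found for 38.8% of the 80 unigenes, 36.8% of the 253 and 31.7% of the 479.

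Of the 80 unigenes, 22 were shorter than 1000 bp and 7 had at least 5000 bp. The longest were comp61317_c3_seq1 with 19892 bp, comp60174_c2_seq1 with 11350 bp and comp61531_c4_seq1 with 9971 bp. Their levels in 121A were 198, 182 and 50.4 RPKM, against 34.3, 33.0 and 5.91 RPKM in 121C. The shortest were comp27420_c0_seq1 with 265 bp, comp48214_c1_seq1 with 510 bp and comp52531_c0_seq1 with 533 bp. In the length classes the median log2 ratio varied little, with 2.51 below 1000 bp, 2.71 from 1000 to under 2000 bp, 2.48 from 2000 to under 5000 bp and 2.66 from 5000 bp.

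**Figure D3:**
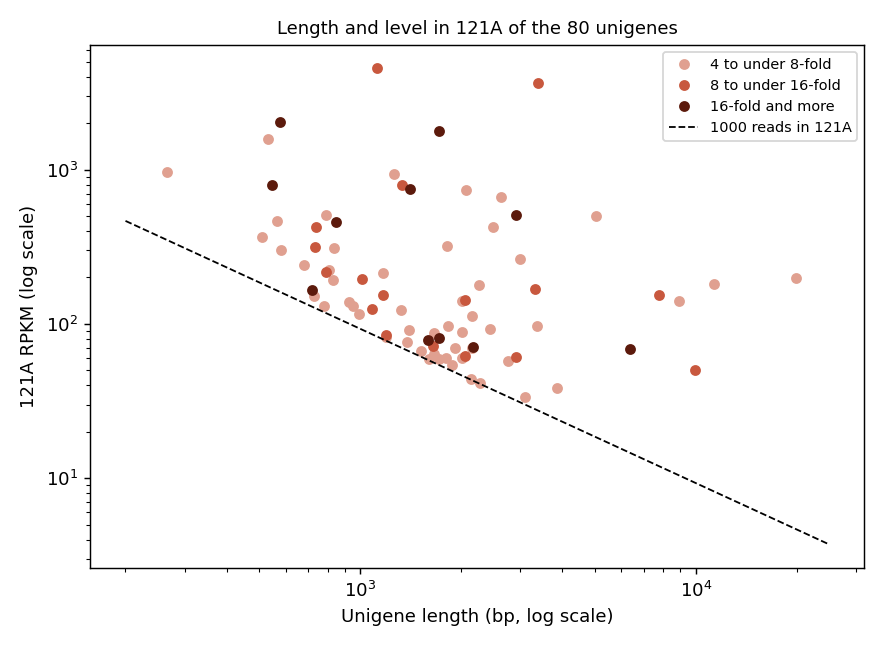
Level in 121A (RPKM, log scale) against length (bp, log scale) of the 80 unigenes, with darker points for larger ratios of 121A over 121C. The dashed line is the level at which a unigene of a given length has 1000 reads, and the unigenes of 16-fold and more occur from 548 to 6365 bp.

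Trinity, the assembler, groups overlapping sequences into components, and unigenes with the same component number may be pieces or copies of the same gene. The 80 unigenes belonged to 73 components, of which 68 held 1 of them and 5 held 2 or 3. Those 5 components held 12 unigenes and 48.3% of the reads of the group in 121A. Whether they are separate transcripts was not tested. How reads of similar unigenes were assigned is not given in the sources used here, so values of unigenes with the same component number are uncertain.

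Unigenes of the group with the same component number had passed the same limit on the ratio, so their agreement in direction is fixed by the rule. The rule also shapes how close their ratios are, since unigenes of a component that missed the limits are not in the pairs. One of these, comp61317_c2_seq1, was higher in 121C. The pairs within comp60087 and within comp61317 share unigenes and are not independent. The differences are thus a description. The median difference in log2 ratio was 0.06 over the 9 pairs of unigenes with the same component number, and 0.65 over all 3160 pairs of the group. The intervals overlapped in 5 of the 9 pairs. All 3 pairs of comp60087 were among these. Its unigenes comp60087_c0_seq1, comp60087_c1_seq1 (7749 bp) and comp60087_c2_seq1 (2909 bp) had ratios of 11.5-fold, 11.4-fold and 11.2-fold. Their levels differed more, with 142, 155 and 60.7 RPKM in 121A, against 12.4, 13.6 and 5.40 RPKM in 121C. The other listed unigenes of comp60087 were also higher in 121A, as comp60087_c3_seq1 with 123 reads in 121A and 6 in 121C, comp60087_c4_seq1 with 70 in 121A and 9 in 121C, and comp60087_c5_seq1 with 198 in 121A and 19 in 121C.

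The unigenes of comp52029 also had the same ratio within counting error. It was 8.35-fold for comp52029_c0_seq1 and 8.63-fold (interval 7.28 to 10.3) for comp52029_c1_seq1 (1083 bp). Their levels, however, were far apart, as comp52029_c1_seq1 had 124 RPKM in 121A and 14.4 RPKM in 121C. The ratios of comp60228_c0_seq1 and comp60228_c1_seq1, 24.8-fold and 30.6-fold, differed by more than counting error. Among these 9 pairs, the largest difference was that between comp26916_c0_seq1, 28.2-fold, and comp26916_c1_seq1, 18.9-fold. The unigene with the next component number, comp26917_c0_seq1, had a ratio of 9.26-fold (interval 8.70 to 9.86).

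The component with the longest unigene, comp61317, held 3 of the 80. The levels of comp61317_c1_seq1 (2069 bp), comp61317_c3_seq1 and comp61317_c5_seq1 (8924 bp) were 734, 198 and 141 RPKM in 121A, against 133, 34.3 and 22.2 RPKM in 121C. Their ratios were 5.51-fold, 5.77-fold and 6.33-fold, and the interval of comp61317_c5_seq1 (6.03 to 6.65) did not overlap those of the others. Together they held 72088 reads in 121A and 11045 in 121C. A shorter unigene of this component, comp61317_c2_seq1 (1629 bp), was annotated in the study as glutamine synthetase, the enzyme that joins ammonia to glutamate. It went the other way, with 69 reads in 121A and 910 in 121C.

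Other listed unigenes of the same components did not always share the direction. There were 28 of them in 16 components, and 18 were higher in 121A, 13 of these at least 4-fold, while 10 were higher in 121C. Of all listed unigenes, 38.0% were higher in 121A. The opposite direction occurred in 9 components. In comp59585, the unigene comp59585_c2_seq1 of the group had 2809 reads in 121A and 535 in 121C, whereas comp59585_c1_seq1 had 272 reads in 121A and 4053 in 121C. In comp60689, the unigene comp60689_c6_seq1 of the group had 1710 reads in 121A and 356 in 121C, whereas comp60689_c1_seq1 had 4 reads in 121A and 454 in 121C. These 2 components were chosen after their values were seen. Unigenes of a component that were not listed were not analysed here.

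**Figure D4:**
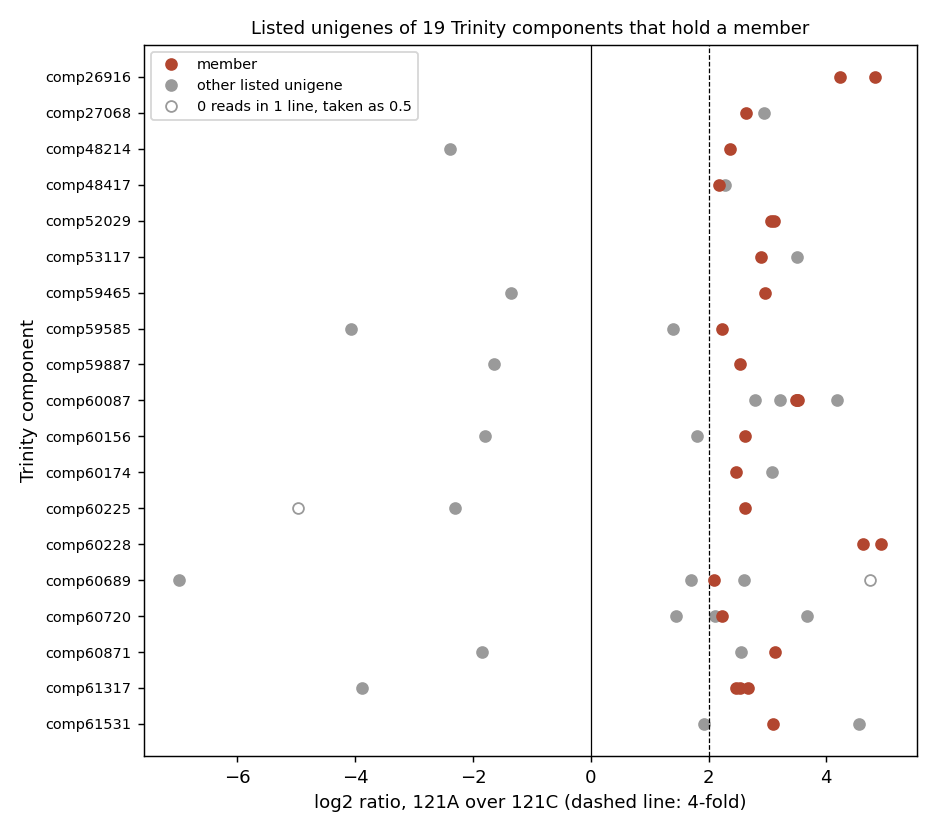
Log2 ratio of 121A over 121C of all listed unigenes in the 19 components that hold a unigene of the group and at least 2 listed unigenes, with the group in red and the others in grey. The red points of comp60087, comp52029 and comp61317 lie close together, and 9 components have a grey point on the side of 121C.

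The ratios of all unigenes depend on the library totals, and comp48143_c0_seq1 took a large part of the 121A total. It had 3473506 reads in 121A and 121580 in 121C, and its log2 ratio was 4.67. Without both unidentified unigenes in the totals, all log2 ratios are higher by 0.57, and 192 unigenes meet the rule. All 80 unigenes were among them, and their median log2 ratio was then 3.19.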

How the data were processed

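By the paper's methods, the authors cleaned the reads of each line, assembled those of both lines with Trinity and counted reads per unigene. CASAVA is named in these methods and in the submitters' processing notes. The aligner and the counting rule are not given in the sources used here. The deposited counts are whole numbers of reads without normalization. The authors computed the deposited RPKM from these counts, with the length of each unigene and the total of its library. Their log2 ratio, q-value and call were also deposited and were not used.

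Library totals and lengths were recovered from counts and RPKM, since lengths are whole numbers. The largest distance from a whole number was 5.5e-05. Log2 ratios were recomputed from counts and totals, with 0 reads taken as 0.5. Intervals were computed with scipy 1.17.1, and those of ratios were tested on simulated counts with counting error only. That simulation cannot show how they behave under variation among plants or libraries. With 1 library per line no test was made, and no p-value is given. Alternatives were other read and fold limits, 3 scalings (one by TMM of edgeR 4.0.16), pseudocounts of 1 and 0.1 RPKM, at least 10 reads in 121C, and reads summed per component.

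The rule and the lists were chosen with earlier results of these data known. Named unigenes are those in the study's RT-PCR or primer list, the 10 highest in 121A, the 10 largest ratios, the 5 highest in 121C, the 3 longest and 3 shortest, those of shared components, and the 3 nearest to each limit on either side. Other names were chosen after their values were seen.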

Additional observations from a re-analysis of the deposited data

How the results depend on the processing

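The number of unigenes depended on the limits and on the scaling. Of the limits, 500 reads gave 144 unigenes, 2000 reads 39, 3-fold 159 and 8-fold 28. Totals without the 2 unidentified unigenes gave 192, totals without the 10 unigenes with most reads per library 162, and TMM 131, and all 80 unigenes were included each time. TMM assumes that most unigenes do not differ, which the listed ones do not meet. The median log2 ratio of the 80 was 3.19 and 3.05 under the other 2 scalings, in the same order, and their share of the 121A reads was 8.40% without the unidentified unigenes. With 3-fold, and with each of these 2 scalings, 8 components held at least 2 unigenes, against 5. With a minimum of 142 RPKM in place of 1000 reads, 47 unigenes met the rule, 40 of them from the group, and the median length of the 47 was 837 bp. Either pseudocount kept 79 of the 80, a minimum of 10 reads in 121C kept 77, summing per subcomponent kept 80, and 67 of the 73 components met the rule when reads were summed per component. The scalings raised all log2 ratios by 0.30 to 0.57, which for 29 or 30 of the 33 named unigenes of the group, depending on the scaling, was outside their counting interval. With 1 RPKM added this held for 6. No paired analysis was possible because each line has 1 library. Depth limits the 3 unigenes with fewer than 3 reads in 121C, whose ratios have no or a distant upper limit.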

Other observations

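The unigenes left out of the group, comp48143_c0_seq1 (7390 bp) and comp48144_c0_seq1 (6325 bp), have consecutive component numbers and the same ratio. It was 25.4-fold for both, with intervals of 25.3 to 25.5 and 24.6 to 26.2. Their levels were 43745 and 1789 RPKM in 121A, against 1722 and 70.4 RPKM in 121C.

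In contrast, comp62681_c0_seq1 and comp62683_c0_seq1 of the group have the same length, 1168 bp, and component numbers that differ by 2, but different ratios. They had 154 and 214 RPKM in 121A, against 14.6 and 51.5 RPKM in 121C, with ratios of 10.5-fold (interval 8.95 to 12.4) and 4.15-fold (interval 3.80 to 4.55).

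Below the limit of 1000 reads, 64 unigenes with at least 500 reads in 121A were at least 4-fold higher there, and 1 of them had 0 reads in 121C. This was comp62752_c0_seq1 (649 bp), with 715 reads in 121A. The next largest ratio, 24.9-fold (interval 15.8 to 41.8), was that of comp56476_c0_seq1, with 533 reads in 121A and 19 in 121C. All unigenes in this section were chosen after their values were seen.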
